A study of Homo sapiens with 48 samples.

Results

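The genes described here encode the enzymes that build cholesterol and long-chain fatty acids and the proteins that switch those enzymes on. They were chosen by name: 31 gene symbols, of which 30 had at least 1 feature on the array, among 20399 gene symbols measured in all. FDFT1, squalene synthase, had no feature with its symbol and was not analysed here. By role, 7 of the measured genes act in the mevalonate pathway, 10 between squalene and cholesterol, 6 in fatty acid synthesis and 6 in the control of these genes by SREBP, and 1, STARD4, carries sterols between membranes. RNA came from THP-1 cells, an established human monocytic leukaemia line made macrophage-like with the phorbol ester PMA, in 48 samples. Every sample was PMA treated. The 12 exposed groups of 3 samples each had received 100 µg of 1 of 6 carbon nanomaterials, named in the labels rCNT, tCNT, Baytube, Graphite, Fullerene and SES, in 1 ml of fresh medium for 6 h or 24 h. The 2 control groups, of 6 samples each, are labelled as negative controls of 6 h and 24 h. Nothing in the labels says that samples of 1 group were separate cultures, so the spread between them may be technical.

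Cholesterol is made from acetyl units by way of mevalonate, isoprenoid diphosphates and squalene. When sterols in the endoplasmic reticulum are scarce, SCAP carries the SREBP precursors to the Golgi, the proteases encoded by MBTPS1 and MBTPS2 cut them, and the released factor enters the nucleus and raises the transcription of the enzymes of the pathway. INSIG1 holds SCAP back when sterols are plentiful. Macrophages take up much lipid, and the oxysterol receptors LXR raise genes of cholesterol export as well as SREBF1 in them.

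The values are the authors' deposited log2 values, so 1 unit is a doubling, and levels of different genes are not comparable with each other. The macrophage and myeloid markers (8 of 9 measured) averaged between 13.08 and 14.69 over the exposed samples and between 13.26 and 14.49 over the controls, while the epithelial markers (4 of 4) averaged between 7.42 and 7.93 in exposed samples and between 7.37 and 8.03 in controls. The fibroblast list lay between 7.08 and 7.88 in exposed samples and between 7.33 and 7.74 in controls, and the lymphocyte list between 8.22 and 9.43 in exposed samples and between 8.02 and 9.12 in controls. Single genes departed from these averages. Of the lymphocyte list GNLY averaged 11.30 and CD79A 10.64 over the 48 samples, and of the fibroblast list PDGFRA averaged 9.32. The myeloid marker SPI1 had an SD of 2.68 and a lowest value of 6.76. Its spot lies in the area of high spread near the middle of the array that is described below. None of these lists had a member called in any material comparison. Likeness between samples did not follow the labels. Over all genes, 34 of 48 samples were most like a sample 20 or 40 columns away, and 1 of 48 was most like a sample of its own labelled group. In the pattern of brightness over the array surface, 46 of 48 were most like a sample 20 or 40 columns away and 0 most like a sample labelled as the same array. The labelled comparisons below may therefore not compare the conditions that the labels state. Samples are named by their labels below ("samples labelled Graphite 6 h") without reassignment, and columns 20 or 40 apart are called a column set. There were 20 such sets, 8 of 3 samples and 12 of 2. Column sets held a median of 76.6% of the variance of the members, against 80.0% over all genes, where 40.4% would follow from their number alone. Labelled groups held a median of 24.4% of the variance of the members, against 24.2% over all genes and 27.7% from their number alone.

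Spread differed greatly among the members, and the 5 largest SDs belonged to genes whose spots lie near the middle of the array. IDI1, the isomerase that makes dimethylallyl diphosphate, FDPS, which joins isoprenoids into farnesyl diphosphate, the sterol enzymes NSDHL and SC5D, and the fatty acid desaturases SCD and FADS1 had SDs over the 48 samples between 0.75 and 1.98, with a median of 1.80. The other 24 members had SDs between 0.15 and 0.79, with a median of 0.55. These 6 genes have their spots close together near the middle of the array, in rows 231 to 313 of 532 and at positions 39 to 52 of the 85 spots of a row. The middle was delimited after the data had been seen, as the spots around which bright features (mean log2 value above 9) of any gene had a median SD above 1, so its high spread is part of its definition. It holds 5.75% of the features, and its 913 bright features had a median SD of 1.38, against 0.487 for 16078 elsewhere.

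**Figure D1:**
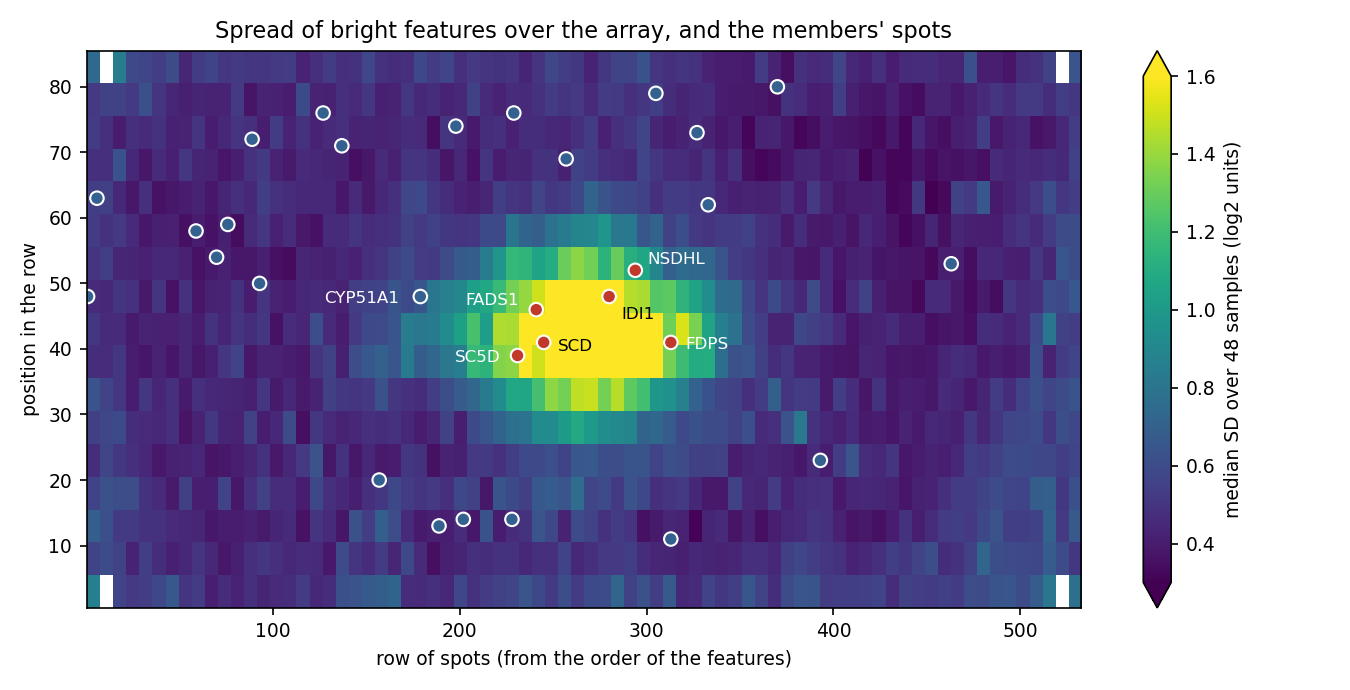
Median SD over 48 samples of bright features (log2 units, colour) in blocks of 7 rows by 5 positions of spots, with the spots of the 30 measured members as points, red in the array centre and blue elsewhere; white blocks hold no bright feature. The 6 red members lie in the area of high spread, and CYP51A1 lies outside it, in row 179.

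**Figure D2:**
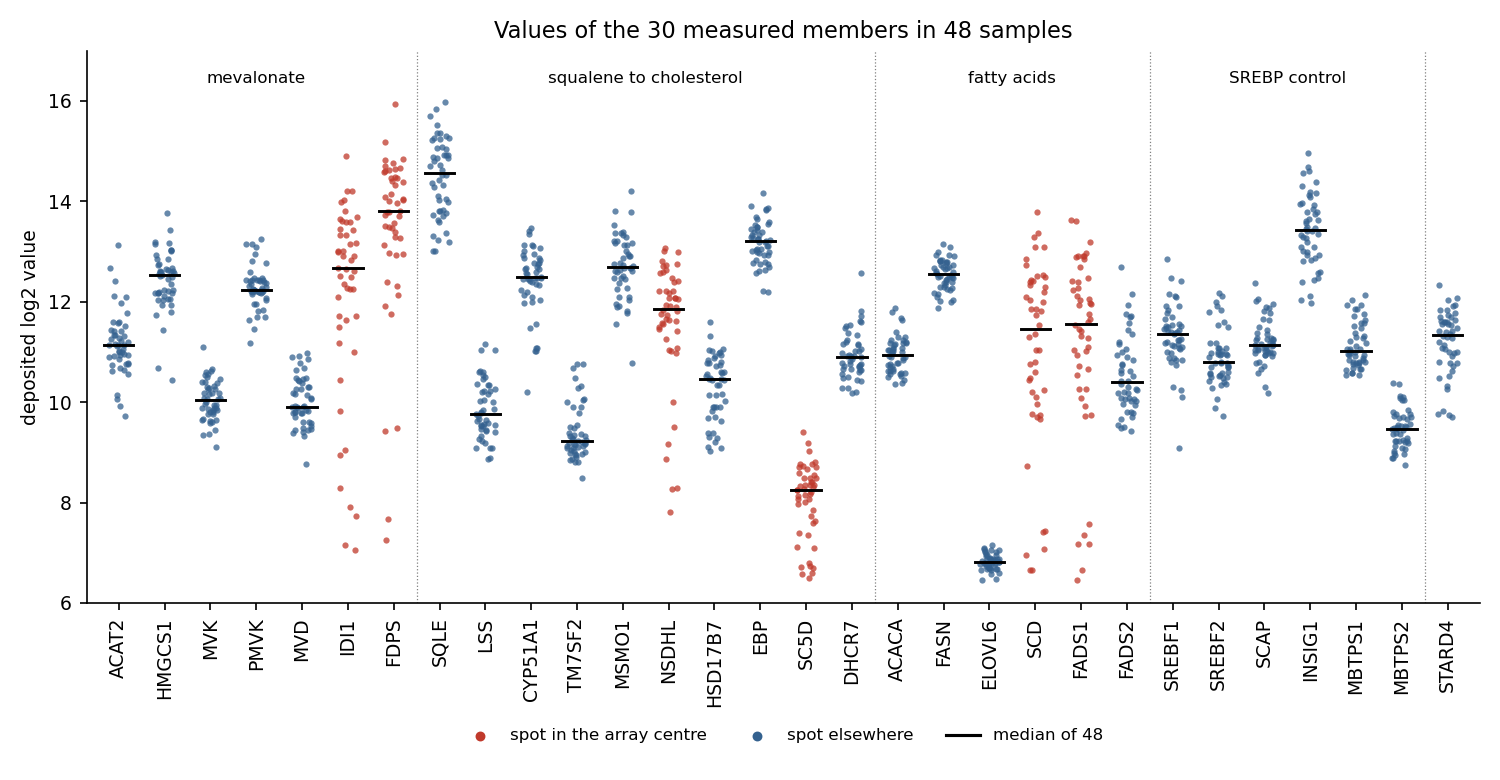
Deposited log2 value (vertical axis) of each measured member (horizontal axis, by role) in each of the 48 samples, with the median as a black bar. The 6 members in the array centre, in red, spread over SDs of 0.75 to 1.98 log2 units, the 24 others, in blue, over 0.15 to 0.79.

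The lowest values of these 6 genes came from the same few samples. IDI1 was 13.58, 14.90 and 11.64 in samples labelled Graphite 6 h, 11.00, 13.33 and 7.16 in Baytube 6 h, 7.72, 12.36 and 13.64 in Fullerene 6 h, and 12.26, 11.72 and 7.91 in tCNT 6 h. At the same time it was 11.50, 9.82 and 12.99 in samples labelled rCNT and 13.33, 12.65 and 12.28 in those labelled SES, while the 6 h controls had a lowest value of 8.29, a median of 13.10 and a highest value of 14.20. At 24 h IDI1 was 8.94, 13.15 and 10.44 in samples labelled Graphite, 7.05, 13.98 and 12.92 in tCNT, 9.05, 13.43 and 12.90 in SES, and 13.02, 12.67 and 11.72 in rCNT. It was 13.61, 13.00 and 12.50 in samples labelled Baytube 24 h and 13.59, 12.83 and 12.61 in Fullerene 24 h, while the 24 h controls ran from 12.09, with a median of 13.32, to 14.20. Low and high values thus stood side by side within labelled groups, and at 24 h the samples labelled Graphite, tCNT, SES and rCNT each reached below the lowest control, while those labelled Baytube and Fullerene did not.

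By column set the same values fell together. In the set that pairs the first tCNT 24 h sample with the third Baytube 6 h sample, the mean log2 value was 7.10 for IDI1, 7.46 for FDPS, 6.65 for SCD and 6.56 for FADS1. The set with samples labelled Fullerene 6 h replicate 1 and tCNT 6 h replicate 3 had means of 7.82 for IDI1, 7.01 for SCD and 7.46 for FADS1, but 11.84 for FDPS. The set with samples labelled Graphite 24 h replicate 1 and control 6 h replicate 5 had means of 8.62 for IDI1, 9.45 for FDPS and 8.06 for NSDHL. Column sets held 98.5% of the variance of FDPS, 96.5% of that of NSDHL, 96.5% of that of IDI1 and 81.5% of that of SC5D. The correlation of each of these 6 genes with the median of its bright neighbouring spots, which belong to other genes, ran from 0.81 for SC5D to 0.97 for FDPS. For the 24 members elsewhere it ran from -0.47 for FADS2 to 0.83 for CYP51A1, with a median of 0.47. Neighbouring spots share the sample, the hybridisation and the surface, and the correlations over 48 samples are given as descriptions.

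Genes printed at several spots showed the same dependence on place. Of the 30 measured members 9 had several features, 73 member features in all. MSMO1, the methylsterol oxidase, had 10 features: 8 outside the middle had a median SD of 0.65, and 2 in the middle had SDs of 1.21 and 1.26. HSD17B7, a ketoreductase of sterol synthesis with a closely similar pseudogene that the array may not separate, had 12 features, 10 elsewhere with a median SD of 0.71 and 2 in the middle with 1.22 and 1.37. TM7SF2, a sterol reductase, had 1 feature in the middle with an SD of 1.57 and 9 elsewhere with a median of 0.52. The 10 features of MBTPS2 all lay outside the middle, with SDs between 0.29 and 0.62. As deposited, other features of a gene also correlated weakly in places, down to an r of 0.07 for MBTPS2 and 0.08 for TM7SF2, while the 2 features of MBTPS1 correlated at 0.70. The second feature of LSS, lanosterol synthase, had a mean of 7.50 and an r of 0.08 with the brighter one, which had a mean of 9.87. The second feature of ACACA, acetyl-CoA carboxylase, had a mean of 8.26 and an r of -0.24 with the brighter one, which had a mean of 10.95.

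**Figure D3:**
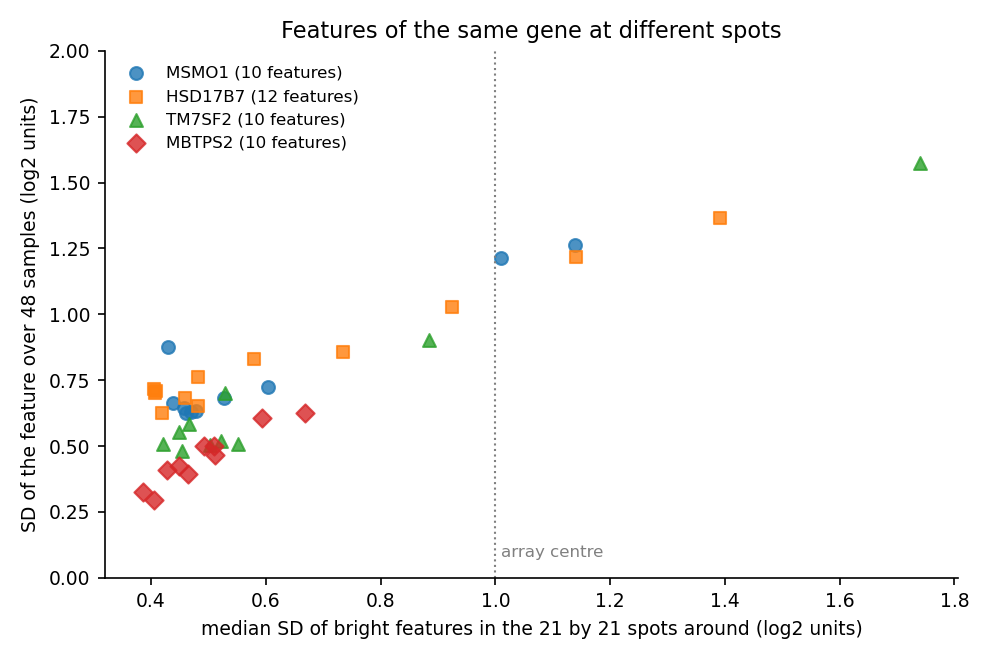
SD over 48 samples (log2 units, vertical axis) of each feature of MSMO1, HSD17B7, TM7SF2 and MBTPS2 against the median SD of bright features in the 21 by 21 spots around it (horizontal axis); the dotted line marks a local SD of 1. Features in the middle have SDs of 1.21 to 1.57, and those elsewhere reach 1.03 at most.

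The remaining levels were as follows, each as the range over the 48 samples. In the mevalonate pathway, HMGCS1, which makes hydroxymethylglutaryl-CoA, ran from 10.44 to 13.77 and ACAT2, the cytosolic thiolase, from 9.72 to 13.13. The kinases MVK and PMVK ran from 9.11 to 11.09 and from 11.18 to 13.26, and the decarboxylase MVD from 8.76 to 10.99. After squalene, SQLE, the epoxidase, was bright in every sample, from 13.01 to 15.97, near the upper end of the scale, where saturation was not tested. LSS ran from 8.86 to 11.15, CYP51A1, the lanosterol demethylase, from 10.20 to 13.47, and MSMO1 from 10.78 to 14.21. TM7SF2 ran from 8.49 to 10.76, HSD17B7 from 9.04 to 11.61, EBP, the sterol isomerase, from 12.19 to 14.17, and DHCR7, which makes cholesterol from its last precursor, from 10.19 to 12.58. SC5D ran from 6.50 to 9.41.

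Of the fatty acid genes, FASN, fatty acid synthase, was the steadiest bright member, from 11.88 to 13.15 with an SD of 0.30. ACACA ran from 10.36 to 11.87 and FADS2, the delta-6 desaturase, from 9.42 to 12.69. ELOVL6, an elongase, stayed between 6.46 and 7.16 with an SD of 0.15, at the lower end of the scale. Its second feature had a mean of 6.75, so no change of ELOVL6 could be read. Among the control genes, SREBF1 ran from 9.10 to 12.85, SREBF2 from 9.72 to 12.18, SCAP from 10.17 to 12.37 and INSIG1 from 11.97 to 14.97. MBTPS1 ran from 10.54 to 12.13, MBTPS2 from 8.74 to 10.38 and STARD4 from 9.70 to 12.34.

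As deposited, the members did not vary together as a group. The median Pearson r over the 435 pairs of members was 0.01, and 11.5% of pairs had an r of 0.5 or more, against 8.24% of the pairs of all 8996 bright genes. The high pairs were concentrated in the middle of the array, where all 15 pairs of the 6 genes had an r between 0.72 and 0.95. The 24 members elsewhere had a median r of 0.05 over 276 pairs. When the means of column sets and of the 3 column blocks (columns 1 to 20, 21 to 40 and 41 to 48) were removed from every gene, a different order appeared. The median r of the 13 sterol pathway members outside the middle was 0.33 over 78 pairs, and 32 of these pairs (41.0%) had an r of 0.5 or more, against 10.1% of pairs of all bright genes. Among the 6 genes in the middle the median r was then 0.24. These deviations have 26 degrees of freedom, were a choice made with the data in view, and share labelling and hybridisation within a set. On these deviations r with bright neighbouring spots was 0.62 for INSIG1, 0.61 for NSDHL, 0.55 for MSMO1, 0.47 for HSD17B7 and -0.73 for FADS2. For CYP51A1 it was 0.34, for MVK 0.20, for HMGCS1 0.03 and for SQLE -0.09. Whether place on the array shapes the correlations between members within sets was not tested.

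Several features of 1 gene agreed closely on these deviations for some members and not for others. The other features of MSMO1 outside the middle correlated with the one used at 0.92 to 0.99, and the 2 in the middle, whose deposited values correlated with it at only 0.17 and 0.25, at 0.99. For HSD17B7 the range was 0.86 to 0.97 over the other 11 features, and for TM7SF2 0.80 to 0.99 over the other 9. MBTPS2, whose deviations were small (SD 0.13), reached 0.23 to 0.72. The second features of MBTPS1, LSS, ACACA and ELOVL6 correlated with those used at 0.72, 0.40, 0.30 and -0.09, and that of SREBF1 at -0.76.

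The sterol genes that moved together within sets came from both the mevalonate pathway and the steps between squalene and cholesterol. HMGCS1, an early enzyme of the pathway, correlated with CYP51A1 at 0.91, where the highest r over the 435 pairs of members was also 0.91. Leaving out any 1 column set kept this pair between 0.90 and 0.92, a range given for this pair alone. The r of HMGCS1 was 0.88 with HSD17B7, 0.87 with IDI1 and 0.79 with MVK. As deposited, HMGCS1 had an r of 0.03 with CYP51A1, 0.70 with HSD17B7, 0.04 with IDI1 and 0.46 with MVK. CYP51A1 correlated with HSD17B7 at 0.84, with MSMO1 at 0.80, with IDI1 at 0.79 and with NSDHL at 0.77. MVK and HSD17B7 reached 0.86, NSDHL and MSMO1 0.84, and HSD17B7 and STARD4 0.72. The means of column sets gave -0.27 for HMGCS1 with CYP51A1 and -0.26 for CYP51A1 with MSMO1.

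Other members formed a second pattern, in which SQLE and INSIG1 ran against several desaturases and late enzymes. SQLE correlated within sets at -0.87 with SCD, -0.82 with TM7SF2, -0.80 with FADS2, -0.79 with EBP and -0.73 with FDPS. INSIG1 correlated at -0.78 with PMVK and -0.73 with FADS1. The genes on the other side varied together: SCD and FADS2 at 0.87, TM7SF2 and FADS2 at 0.86, ACAT2 and EBP at 0.86, FDPS and SCD at 0.83, and PMVK and TM7SF2 at 0.83. With the mean of the other sterol genes, SQLE had an r of -0.17, LSS 0.15, FDPS 0.18 and TM7SF2 0.20, and the highest were CYP51A1 at 0.94, HMGCS1 at 0.91 and both HSD17B7 and MVK at 0.82. SQLE was positive with some of them, at 0.53 with MVD, 0.52 with MSMO1 and 0.44 with NSDHL, and at 0.63 with INSIG1. DHCR7 reached 0.73 and was the member closest to the mean of all other members, at 0.87.

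**Figure D4:**
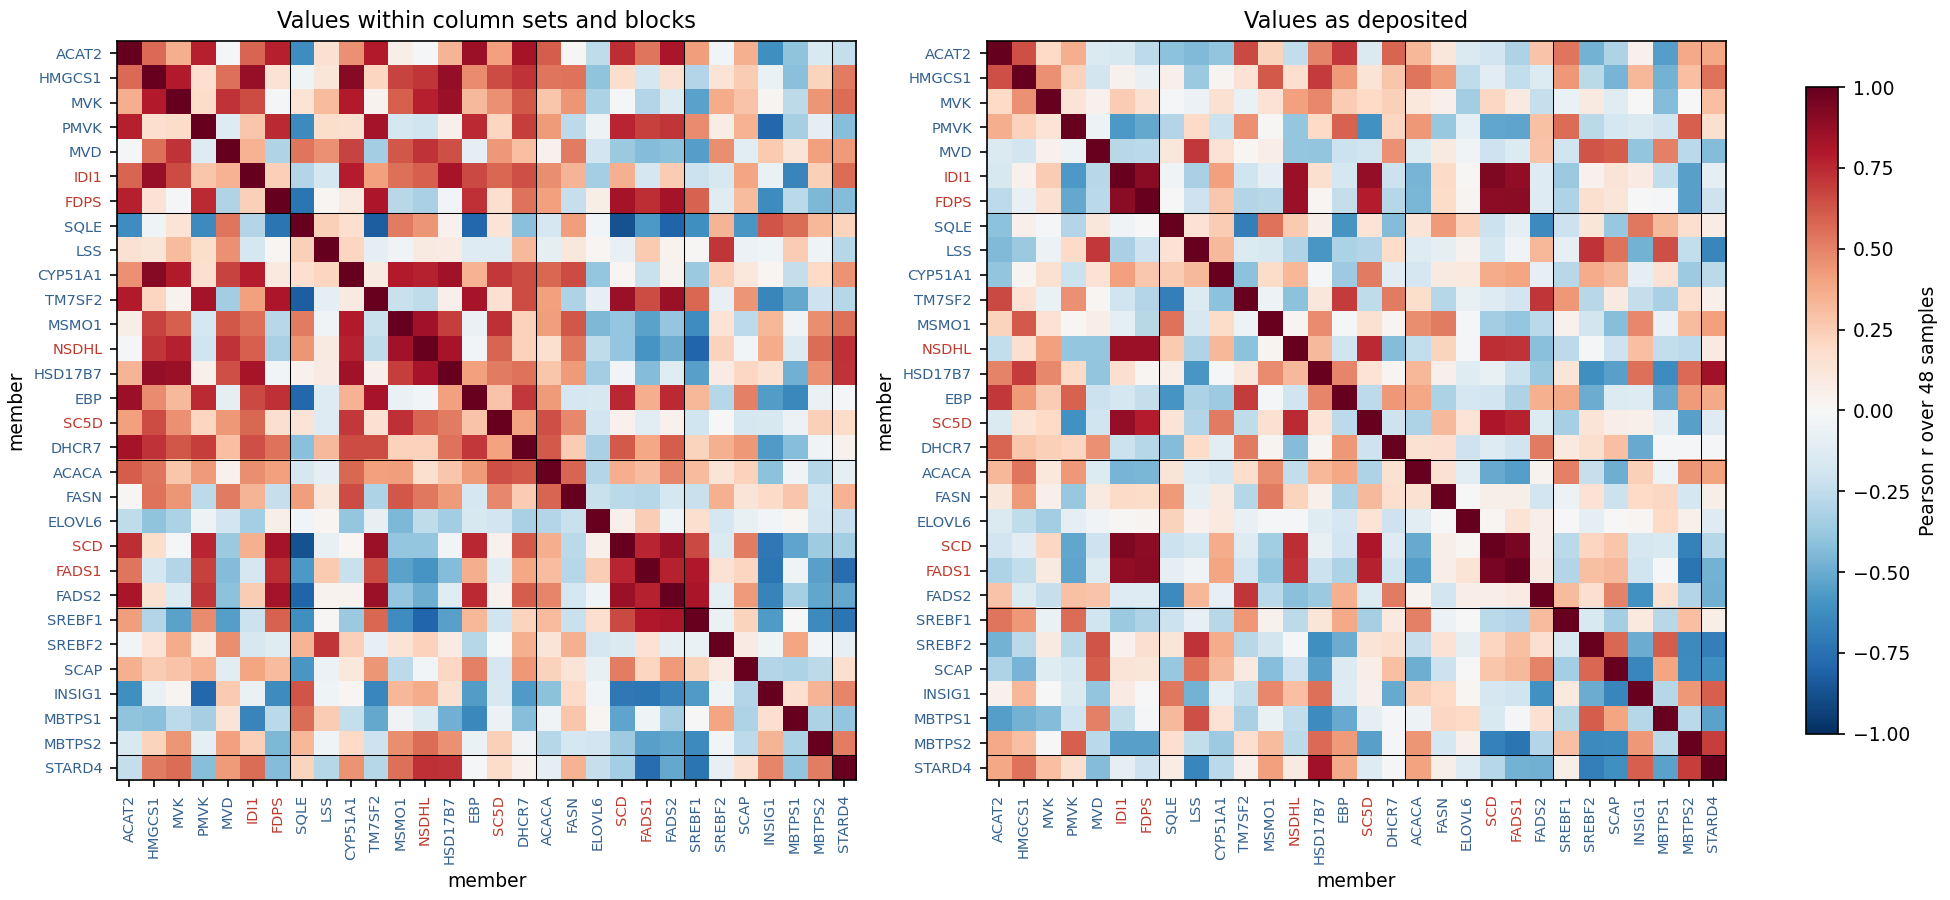
Pearson r between the 30 measured members over 48 samples (colour), in order of role, after removal of column set and column block means (left) and as deposited (right); names in red have their spot in the array centre. On the left, HMGCS1, MVK, IDI1, CYP51A1, MSMO1, NSDHL and HSD17B7 form a positive block, and SQLE and INSIG1 are negative with SCD, FADS2, TM7SF2 and EBP; on the right the strongest positive block is that of the 6 red genes.

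SREBF1, which encodes SREBP-1, followed neither the sterol genes nor its own second feature. Within sets it correlated at 0.82 with FADS2 and 0.80 with FADS1, and at -0.79 with NSDHL and -0.73 with STARD4. Of the LXR targets and efflux genes (8 of 9 measured), 4 had an r of 0.5 or more with SREBF1, against 12.5% of 8968 bright genes outside the member list: ABCG1, a cholesterol exporter, at 0.75, MYLIP, a ubiquitin ligase, at 0.67, LPCAT3, which remodels phospholipids, at 0.67 and PLTP, the phospholipid transfer protein, at 0.62. ABCA1, another exporter, was at 0.37. With the mean of the 13 sterol genes outside the middle, 7 of these 8 genes were negative, with a median r of -0.34. The lowest values were -0.67 for ABCA1 and -0.59 for MYLIP. Over the bright genes the median was 0.04, and 56.1% of them were above 0. ABCG1 and NR1H3 have their spots in the middle of the array. With a mean of 7.44, ABCG1 lies below the limit of 9 for bright genes, so the bright genes are not a like background for it. The 2 features of SREBF1 went opposite ways within sets, with an r of -0.76. The one used, with a mean of 11.32, had an r of -0.30 with the sterol genes, and the dimmer one, with a mean of 8.68, an r of 0.46. Which transcript each feature reads was not known here.

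The upstream sequences of the 4 sterol genes that lay closest to the others within sets are shown because these genes moved together and because SREBP acts at promoters. Each is the 250 bases before the start of the gene in RefSeq (GRCh38.p14), 5′ to 3′ on the gene's strand. Capitals mark CCAAT or its complement ATTGG and the GC box GGGCGG or its complement CCGCCC. CYP51A1 lies on the minus strand at chr7:92134478-92134727, HMGCS1 on the minus strand at chr5:43313413-43313662, with the first of 2 listed starts used, HSD17B7 on the plus strand at chr1:162790452-162790701 and MVK on the plus strand at chr12:109573544-109573793.
CYP51A1: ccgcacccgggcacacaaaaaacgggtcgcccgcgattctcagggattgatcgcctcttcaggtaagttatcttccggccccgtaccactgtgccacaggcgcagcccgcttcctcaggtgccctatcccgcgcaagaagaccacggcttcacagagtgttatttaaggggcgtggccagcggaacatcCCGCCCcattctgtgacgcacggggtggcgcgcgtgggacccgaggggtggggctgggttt
HMGCS1: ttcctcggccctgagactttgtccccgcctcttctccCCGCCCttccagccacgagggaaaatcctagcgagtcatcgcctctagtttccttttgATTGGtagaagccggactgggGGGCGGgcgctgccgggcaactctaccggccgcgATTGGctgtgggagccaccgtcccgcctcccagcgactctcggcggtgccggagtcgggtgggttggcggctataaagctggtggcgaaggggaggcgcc
HSD17B7: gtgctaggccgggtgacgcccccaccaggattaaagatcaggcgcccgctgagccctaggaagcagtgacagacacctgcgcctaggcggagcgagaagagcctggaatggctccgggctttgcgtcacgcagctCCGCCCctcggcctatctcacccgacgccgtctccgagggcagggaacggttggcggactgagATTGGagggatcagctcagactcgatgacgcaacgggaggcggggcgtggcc
MVK: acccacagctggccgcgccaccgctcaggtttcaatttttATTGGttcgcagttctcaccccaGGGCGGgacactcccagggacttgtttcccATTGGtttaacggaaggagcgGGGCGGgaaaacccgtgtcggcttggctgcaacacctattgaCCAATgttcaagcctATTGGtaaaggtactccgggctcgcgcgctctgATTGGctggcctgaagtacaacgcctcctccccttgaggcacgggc

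In these letters, CYP51A1 held 1 GC box and no CCAAT, HMGCS1 2 of each, HSD17B7 1 of each, and MVK 5 CCAAT on either strand with 2 GC boxes. Of the 15 sterol pathway members with a promoter in the table, 12 (80%) held CCAAT or ATTGG in the 250 bases, against 33% of 27305 genes, and 14 (93.3%) held GGGCGG or CCGCCC, against 42.3%. Among 27 members of all roles the shares were 59.3% and 85.2%. The 27305 genes were not limited to those measured on the array. NF-Y binds CCAAT and SP1 binds the GC box, and both are known to act with SREBP. The sterol element in the form CACNCCAC, searched on both strands, was in 0 of the 15 sterol members and in 3 of 27 members of all roles (11.1%), against 4.72% of all genes; TCACNCCAC, which contains it, was in 1 of 27, against 0.875%. A match or its lack describes these letters and says nothing of what binds there.

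The gene outside the list that was most like the sterol genes was MMAB, an enzyme of vitamin B12 metabolism. Its r with the mean of the 17 sterol members was 0.88 as deposited and 0.92 within sets, the first of all non-members in both. That mean includes IDI1, FDPS, NSDHL and SC5D, whose spots lie in the middle of the array. With the sterol members outside the middle alone, the r of MMAB within sets was 0.91, again the first. MMAB had a mean of 8.11, below the limit of 9 for bright features. Its spot lies outside the middle, in a block where bright features had a median SD of 0.71. Whether place on the array shapes the r of 0.88 was not tested. MMAB is the neighbour of MVK on the opposite strand of chromosome 12. The starts used in the promoter table have 289 bases between them, while the RefSeq gene table gives MVK an earlier start, at which both genes overlap. MMAB and MVK correlated at 0.78 within sets, and MMAB reached 0.87 with CYP51A1, 0.84 with SC5D and 0.83 with HMGCS1. As deposited, 11 of the 15 non-members most like the sterol genes lay in the middle of the array, and within sets 1 of 15 did. Those within sets included KCNJ5-AS1 (r = 0.83), PGBD5 (0.80), TPM1 (0.77), LPIN1 (0.76), a phosphatidate phosphatase, and ERG28 (0.75), a scaffold of the sterol demethylation enzymes. The others ran from 0.72 to 0.75: PCDH7, DPH7, FLVCR1, EEF2K, RNF115, NUDT19, PEX3, SRPRB and GNE.

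Further lipid synthesis genes, 15 of 16 measured, had a median r of 0.41 with the 13 sterol genes within sets, and 11 of 15 were above 0, against 56.1% of bright genes. ERG28 at 0.73 and LPIN1 at 0.74 had the highest values. TMEM97, a sterol-responsive membrane protein, was at 0.50, ELOVL1 at 0.46, ACLY, the ATP citrate lyase, at 0.43, INSIG2 at 0.43 and AACS at 0.43. ACACB, the mitochondrial acetyl-CoA carboxylase, was at -0.14 with the sterol genes but at 0.82 with the SREBF1 feature used. The second feature of SREBF1 correlated with the one used at -0.76, and its r with ACACB was not determined. ACACB was dim, with a mean of 7.47 and a lowest value of 6.88.

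The labelled comparisons asked whether each carbon material changed these genes relative to the control of the same time. Among 360 tests of members in 12 comparisons, 1 passed an adjusted p of 0.05 (limma, Benjamini-Hochberg over 20399 genes): MBTPS1, the site-1 protease, in samples labelled Fullerene 6 h. In that comparison 0.446% of all genes were called, in the other 11 comparisons 0%, and over the 12 together 0.0372%. At an unadjusted p under 0.05, 24 of the 360 tests (6.67%) passed, against 4.5% over all genes. These were 6 in Graphite 24 h, where 15.7% of all genes passed, 6 in rCNT 24 h (4.5%), 5 in Fullerene 6 h (11.2%), 4 in tCNT 6 h (6.27%), 2 in Graphite 6 h (1.94%) and 1 in SES 24 h (2.97%). No member passed in rCNT 6 h (2.31% of all genes), Baytube 6 h (0.941%), SES 6 h (0.677%), tCNT 24 h (2.19%), Baytube 24 h (4.69%) or Fullerene 24 h (0.613%). The comparison of the 24 h controls with the 6 h controls called 0 of 30 members, with 0 at an unadjusted p under 0.05, where 1.14% of all genes passed. The test of whether a material's effect differed between 24 h and 6 h called 0 members for each of the 6 materials. At an unadjusted p under 0.05 it passed 2 members for Graphite (9.12% of all genes), 1 for Fullerene (4.3%), and 0 for rCNT (1.3%), tCNT (2.97%), Baytube (2.45%) and SES (1.61%). Such counts read against the precision: the SE of a member's log2 fold change had a median of 1.31 for the 6 genes in the middle of the array and of 0.36 for the 24 elsewhere.

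MBTPS1 was 11.85, 11.93 and 11.85 in samples labelled Fullerene 6 h, while the 6 h controls had a lowest value of 10.54, a median of 10.88 and a highest value of 11.12. The groups did not overlap, as for 5.16% of all genes in this comparison. The log2 fold change was 1.03 ± 0.25 (SE) with an adjusted p of 0.0481 in limma, and the means were 11.88 ± 0.05 in Fullerene and 10.84 ± 0.22 in controls (SD, n = 3 and 6). The second feature of MBTPS1 had means of 11.29 ± 0.90 in Fullerene and 10.53 ± 0.63 in controls (SD, n = 3 and 6), and its groups overlapped. The 3 samples came from 2 column sets, whose other samples were also high: tCNT 6 h replicate 1 stood at 11.64 and tCNT 6 h replicate 3 at 11.72. With column set and block as fixed terms the log2 fold change was 0.31 ± 0.35 (SE), with an adjusted p of 0.945 in limma, and with column set as a random block it was 0.79 ± 0.22 (SE), with an adjusted p of 0.249. MBTPS1 was higher still in 3 samples of another set, 11.94 in SES 24 h replicate 1, 12.03 in Graphite 24 h replicate 3 and 12.13 in rCNT 6 h replicate 2. Its groups also did not overlap in tCNT 6 h, with a log2 fold change of 0.68 ± 0.25 (SE), as for 2.12% of all genes. The same held in rCNT 24 h, at 0.53 ± 0.25 (SE), as for 3.82% of all genes. Neither was called (adjusted p 0.679 and 0.910 in limma), and in the other comparisons its groups overlapped.

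Samples labelled Graphite 6 h are described because they were the most one-sided of the 12 comparisons. In the others, members with a log2 fold change above 0 ran from 8 of 30 in Fullerene 24 h to 17 of 30 in SES 6 h. The medians there ran from -0.21 in tCNT 6 h to 0.08 in SES 6 h. The members share the same samples, so such counts are not of independent results. In Graphite 6 h 26 of the 30 members had a log2 fold change above 0, with a median of 0.36, against -0.0037 over all genes. Outside the middle the count was 20 of 24 and the median 0.30. Without Graphite 6 h replicate 2 the count was 19 of 30 and the median 0.18, and without control 6 h replicate 5 the count was 24 and the median 0.18. The median was 0.23 without control 6 h replicate 4. With column sets as a random block the count was 23 and the median 0.23, and with column set and block as fixed terms 22 and 0.20. No member was called, the lowest adjusted p being 0.9998 in limma, and 1.94% of all genes had an unadjusted p under 0.05, as did MVD and MVK. HMGCS1 was 12.68, 13.77 and 13.43 in samples labelled Graphite 6 h, and the 6 h controls ran from 12.03, with a median of 12.61, to 13.15. MVK was 10.61, 11.09 and 10.07 in Graphite 6 h, and the 6 h controls ran from 9.11, with a median of 10.22, to 10.55. The groups overlapped for both. The count was 20 of 30 and the median 0.07 when set against the controls of code 1 alone, and 26 and 0.50 against those of code 6, where the codes are those in the sample descriptions.

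Samples labelled Graphite 24 h had the widest member differences. NSDHL was 8.30, 11.25 and 10.01 in Graphite 24 h, and the 24 h controls ran from 11.64, with a median of 12.55, to 13.01, a log2 fold change of -2.59 ± 0.87 (SE) with an adjusted p of 0.187 in limma. Its spot lies in the middle of the array, and all 6 genes there were lower in Graphite 24 h, with a median log2 fold change of -1.95, against 0.06 for the 24 members elsewhere. FADS2 was 11.35, 11.72 and 10.91 in Graphite 24 h, and the 24 h controls ran from 9.67, with a median of 10.06, to 10.18, a log2 fold change of 1.33 ± 0.53 (SE) with an adjusted p of 0.217 in limma. For both genes, and for SCAP, the groups did not overlap, as for 10.4% of all genes in this comparison. In a fit of these 2 groups alone NSDHL and FADS2 were called, as were 3.99% of all genes. With column sets as a random block, or with column set and block as fixed terms, no member had an unadjusted p under 0.05 in this comparison.

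The lowest log2 fold change among the members belonged to 1 of the 6 genes in the middle in 7 of 12 comparisons. Their median log2 fold change was -1.35 in tCNT 24 h, -0.99 in Baytube 6 h, -0.96 in SES 24 h and -0.79 in tCNT 6 h, where the 24 others had medians of 0.05, 0.03, 0.01 and -0.07. For the 6 genes it was above 0 only in Graphite 6 h (0.42), SES 6 h (0.39) and Baytube 24 h (0.03). In the 24 h controls against the 6 h controls it was 0.74. Over the 12 comparisons 10 member results had groups that did not overlap, 3 of them in Fullerene 6 h, 3 in Graphite 24 h, 2 in rCNT 24 h and 1 each in tCNT 6 h and Fullerene 24 h. Of all genes, 5.16% did not overlap in Fullerene 6 h, 10.4% in Graphite 24 h, 2.12% in tCNT 6 h and 1.09% in Fullerene 24 h. In the comparisons with no such member the shares were 1.27% in rCNT 6 h, 0.422% in Baytube 6 h, 1.23% in Graphite 6 h, 0.627% in SES 6 h, 2.48% in tCNT 24 h, 2.03% in Baytube 24 h and 1.75% in SES 24 h. In samples labelled rCNT 24 h, where 3.82% of all genes did not overlap, HSD17B7 had a log2 fold change of -1.20 ± 0.44 (SE), with an adjusted p of 0.910 in limma. Further lipid synthesis genes and the LXR list had 0 calls in the 12 comparisons, with lowest adjusted p of 0.185 and 0.232 in limma.

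**Figure D5:**
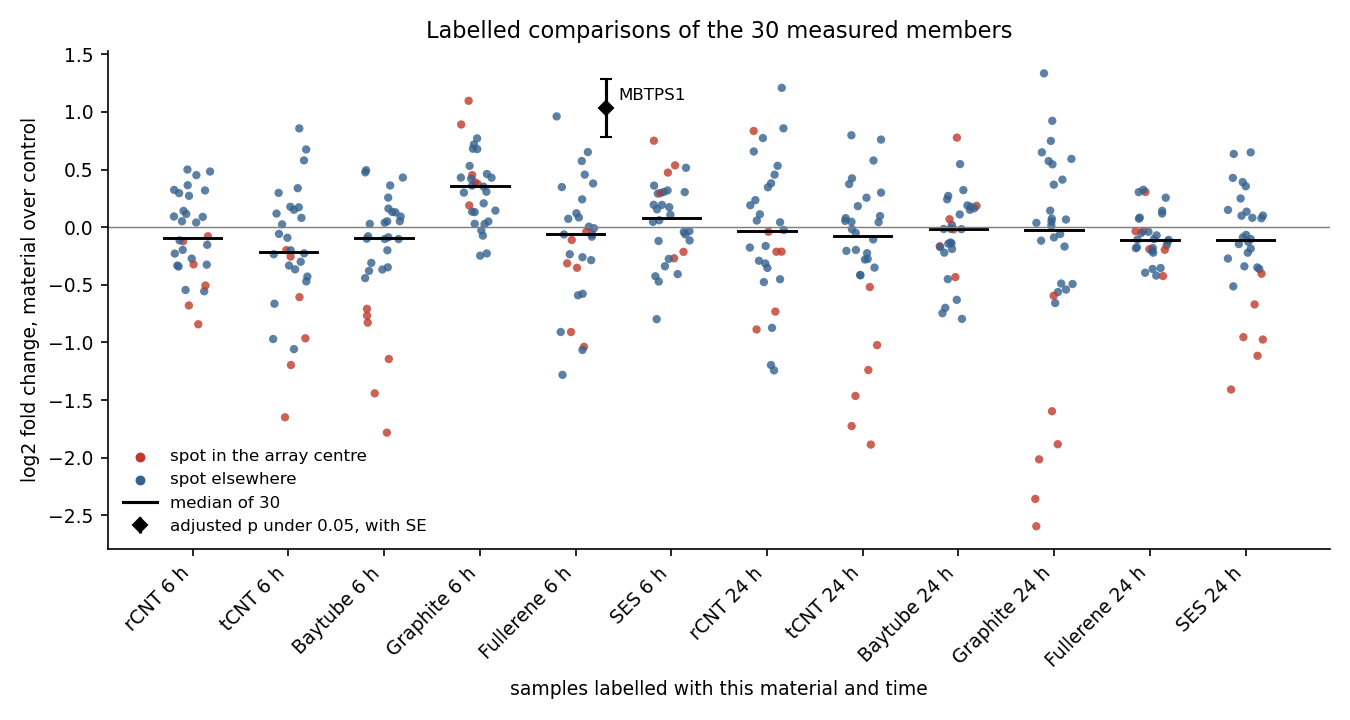
Log2 fold change of each measured member (points) between samples labelled with a material and the control of the same time, for 6 materials at 6 h and 24 h, with the median of the 30 as a black bar; red points have their spot in the array centre. The diamond is MBTPS1 in Fullerene 6 h (1.03 ± 0.25, SE), the 1 member called, and the lowest point is red in 7 of 12 comparisons.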

How the data were processed

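Total RNA of 48 THP-1 samples was amplified and labelled with 1 of 3 dyes, per the labels. The deposited table holds log2 values of 45220 features per sample, made by the authors with R 2.3 and limma, per the submitters' processing notes; background correction and normalisation are not given in the sources used here. No column belonged to an unlabelled sample. The feature with the highest mean stood for each of 20399 symbols.

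Comparisons used limma 3.58.1 in R 4.3.3: 1 fit of 48 samples with 14 labelled groups and dye as a fixed term, Benjamini-Hochberg adjustment over all genes within each contrast, threshold 0.05. On simulated data for Graphite 6 h (20399 genes), 57 of 100 genes changed by 1 log2 unit and 90 of 100 changed by 2 were called. The simulated noise was independent between samples, while in the deposited values column sets held a median of 80.0% of the variance over all genes. The simulated counts therefore do not give the power of the labelled comparisons. Spots were laid out in rows of 85 by feature order. Correlations have no p. The number of arrays limits the precision. The members, lists and tests were chosen with earlier results of these data known. Members past the threshold, the 4 of largest SD and the 4 most like the others as deposited were named; those 8 places fell to 6 genes of the array centre, of which IDI1 is given by group. Upstream sequences are from RefSeq. Title numbers showed no pairing of the samples as labelled. Over 276 pairs of different groups with the same number, deviations from group means had a mean r of 0.0105, from -0.81 to 0.69. As the labels may not state the conditions, this could not show whether samples were paired.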

Additional observations from a re-analysis of the deposited data

Results flagged for a closer look

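In 6 of 60 sets of 6 control samples (30 members at 2 times), or 10%, 1 sample lay far from the other 5 (Dixon's test at 95%). A rate of about 1 in 20 would apply to independent sets. The members share the same samples, and the share over all genes was not determined, so the 10% shows no excess among the members. Of the 6 flagged values, 4 came from the sample labelled control 6 h replicate 5. In it FDPS was 9.43, against 12.98 to 14.67 in the other 5 controls, NSDHL 7.82 against 11.46 to 12.99 and FADS1 7.18 against 10.94 to 12.39, all at spots in the array centre. CYP51A1, whose spot in row 179 lies outside the centre (rows 208 to 329), was 10.20 in this sample, against 12.04 to 13.01. This sample belongs to the column set in which these genes were also low in Graphite 24 h replicate 1. MVK was 9.59 in control 24 h replicate 5, against 10.26 to 10.60 in the others, and PMVK was 11.47 in control 24 h replicate 6, against 12.22 to 12.47. The cause was not tested.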

How the results depend on the processing

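Of the 360 member tests against time-matched controls 1 was called, and that count was 1 after median centring or quantile normalisation, with labelled slide in the fit, without the dimmest genes and with only features outside the array centre. It was 0 without the dye term, with the replicate block (MBTPS1 log2 fold change 1.13, adjusted p 0.101 in limma), with the letter block, with column sets as a random block or, together with column block, as fixed terms, with the mean of a gene's features, with a trended robust variance, after removal of the surface component, and with controls of code 1 or code 6 only. It was 2 in fits of the contrast's own groups (NSDHL and FADS2 in Graphite 24 h, with 3.99% of all genes). It was 5 without the 6 samples of surface SD above 0.2: HMGCS1, ACAT2, SREBF1 and MBTPS1 in Fullerene 6 h, where 4.53% of all genes were then called, and HMGCS1 in tCNT 6 h (0.23%). Leaving out each of 48 samples gave 0 to 1 calls. MBTPS1 was called in 12 of these omissions and SREBF1 in 1, that of Fullerene 6 h replicate 1. MBTPS1 stayed above 0 in all settings, from 0.31 to 1.13, with adjusted p from 0.0262 to 0.945 in limma; it passed in 6 of 17 settings. In the 48 omissions its fold change ran from 0.97 to 1.15 and its adjusted p from 0.0162 to 0.535. The time comparison and the comparisons of effects between times had 0 calls under every setting run, and leaving out each sample gave 0 to 0. The causes were not tested.

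The median r over member pairs, 0.01, was 0.089 within column sets and 0.15 within column sets and blocks; the other 9 alternatives moved it by less than 0.05, and leaving out each sample gave -0.00 to 0.02. The median r of the 13 sterol genes within sets ran from 0.29 to 0.38 over 26 alternatives. The array centre, the column block and the fits built on them were chosen after seeing the data.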
